A study of Mus musculus with 11 samples.

Results

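The G2 and mitosis machinery is described here as 43 genes whose products carry a cell from G2 through chromosome segregation to cytokinesis. They were chosen by gene symbol, with earlier results of these data known, and all 43 were found among the 24062 gene rows of the count tables. RNA-seq was performed on primary mesenchymal cells grown from embryonic day 15 mouse lungs, which had been collected by their adhesion to culture plastic and then passaged. The 11 libraries came from fetuses of Sp3+/- matings and comprised 4 wild-type (WT, Sp3+/+), 4 Sp3+/- and 3 Sp3-/- libraries. Sp3 is a transcription factor that binds GC boxes. Every library title carried the tag CTRL, and no agent was named for any group. The comparisons ask how the transcripts of the division machinery differ with Sp3 genotype, and values are given for each library because cultures of 1 genotype differed widely.

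Entry into mitosis is driven by the kinase CDK1 bound to a cyclin, and the transcription factor FOXM1 raises many of the genes needed at this stage. Aurora and Polo-like kinases then build the spindle, the kinetochores attach chromosomes to it, and the spindle checkpoint holds back the anaphase-promoting complex until all are attached. Most of these transcripts are low in resting cells and accumulate in G2 and mitosis, so that they are widely read as a measure of dividing cells. In growing fetal lung the mesenchyme is among the dividing tissues.

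Many genes of this class share promoter elements, so the promoters are shown first. A CCAAT box binds the factor NF-Y, the cell cycle genes homology region (CHR) is an element bound by the DREAM and MuvB complexes, and a GC box can bind Sp family factors. RefSeq promoters of GRCm38.p6, each running from 250 bases before to 50 bases after the annotated start, were held for 36 of the 43 genes (37 promoters, Prc1 having 2). Ccna2, Cdc25c, Foxm1, Tpx2, Aurkb, Dlgap5 and Kif20a had no entry. The letters searched on both strands were CCAAT for the CCAAT box, TTTGAA or TTCGAA for the CHR and GGGCGG for the GC box, and no one of these strings contains another. The stretches below are from 4 genes whose sequence upstream of any annotated transcript held both a CCAAT box and a CHR. They run 5′ to 3′ in the direction of the gene, begin 200 bases before the start, and carry the matches in capitals (on the opposite strand a CCAAT box reads ATTGG, a GC box CCGCCC and a CHR TTCAAA or TTCGAA). Cdk1 is at chr10:69352943-69353112 on the minus strand, Ccnb2 at chr9:70421593-70421754 on the minus strand, Bub1b at chr2:118598011-118598199 on the plus strand and Top2a at chr11:99024237-99024389 on the minus strand.
Cdk1: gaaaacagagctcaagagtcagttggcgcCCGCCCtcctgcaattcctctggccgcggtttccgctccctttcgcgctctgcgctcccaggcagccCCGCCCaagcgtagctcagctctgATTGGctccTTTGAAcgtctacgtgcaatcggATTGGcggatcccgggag
Ccnb2: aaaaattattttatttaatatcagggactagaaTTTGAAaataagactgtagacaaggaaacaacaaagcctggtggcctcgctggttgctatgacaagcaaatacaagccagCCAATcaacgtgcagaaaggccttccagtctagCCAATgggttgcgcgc
Bub1b: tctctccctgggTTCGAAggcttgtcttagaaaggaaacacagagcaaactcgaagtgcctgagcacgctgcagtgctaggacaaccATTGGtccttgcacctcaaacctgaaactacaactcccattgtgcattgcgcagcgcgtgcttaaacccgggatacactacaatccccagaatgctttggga
Top2a: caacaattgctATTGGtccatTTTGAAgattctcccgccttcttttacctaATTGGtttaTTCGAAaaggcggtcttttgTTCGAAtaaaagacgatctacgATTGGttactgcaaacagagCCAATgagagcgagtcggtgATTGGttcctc

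A CCAAT box was found in 28 of the 37 member promoters (75.7%), against 37.1% of the 13441 promoters of genes tested between Sp3-/- and WT and 37.4% of all 32851 promoters. A CHR was found in 27 (73%), against 13.5% and 19.2%. Both together were found in 24 (64.9%), against 5.36% and 7.52%. A GC box was found in 28 (75.7%), which stood nearer to the 61.1% of tested genes than to the 35.7% of all promoters. Of the 32 promoters of DNA replication genes, 18.8% held a CHR and 59.4% a CCAAT box. The CHR matches lay close to the start, 25 of 35 within 50 bases of it. With the window set to the 200 bases before the start, 12 promoters (32.4%) held one, against 8.79% of those of tested genes. A GC box was found in that window in 56.8% of member promoters and 54% of those of tested genes. Of the 65 CCAAT boxes 41 lay in the 100 bases before the start. These are matches of letters and not mapped binding sites.

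**Figure D1:**
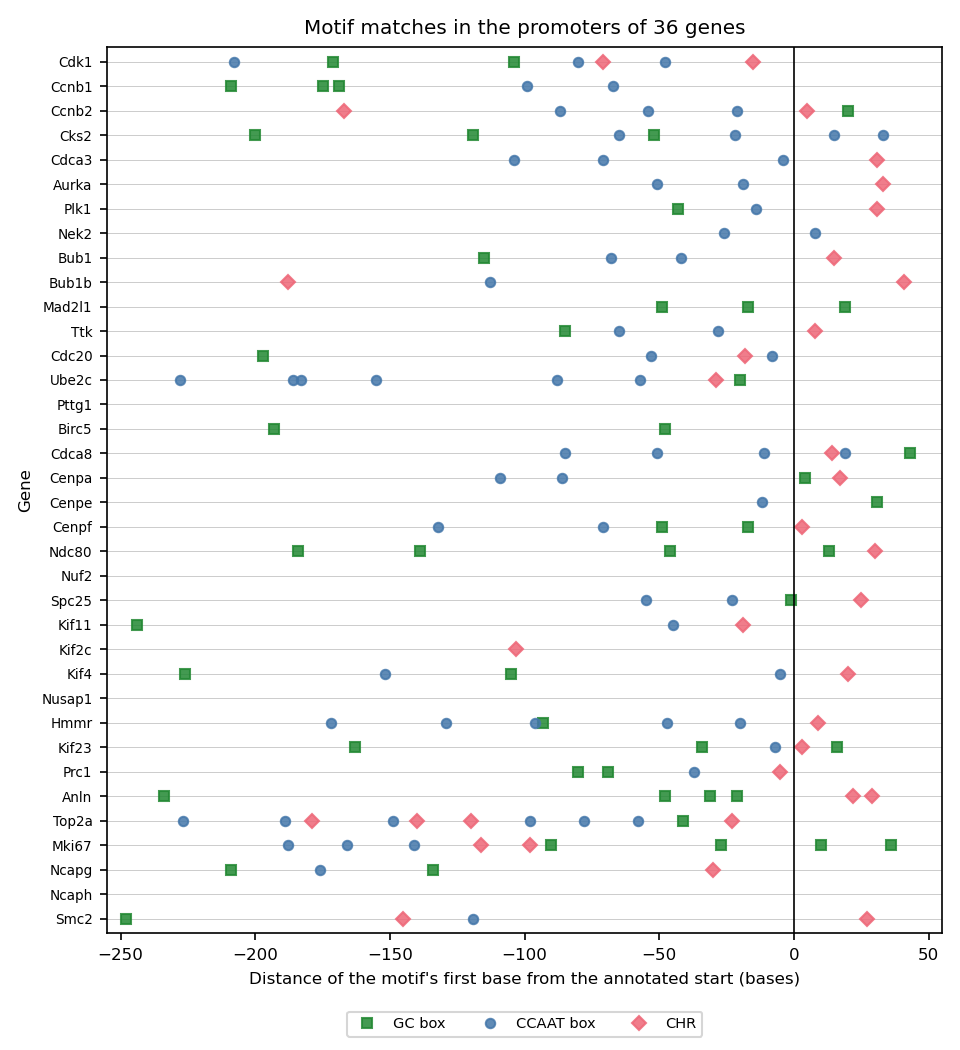
Matches to the GC box (squares), CCAAT box (circles) and CHR (diamonds) in the promoters of 36 genes, plotted by the distance in bases of the first base of the motif from the annotated start. Most genes carry CCAAT boxes before the start with a CHR near it, whereas Pttg1, Nuf2, Nusap1 and Ncaph hold none of the 3.

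The libraries held from 9849111 reads on genes in Sp3-/- 697-5 to 59297495 in Sp3+/- 685-5. Library names are those of the titles, and values are on the scale of log2 CPM, the counts scaled to the size of the library (TMM-normalised, prior count 2) unless stated. Sp3 itself lay between 5.92 and 6.75 in WT, between 5.70 and 6.16 in Sp3+/- and between 3.86 and 4.24 in Sp3-/-, so that every Sp3-/- library lay below all others; the log2 fold change against WT was -2.30 (SE 0.21, adjusted p = 0.00611, edgeR). No pair of libraries of 1 genotype was alike within counting noise (lowest chi-square per degree of freedom 15.8). The titles of WT 468-4, Sp3+/- 697-4 and the 3 Sp3-/- libraries end at the tag, whereas those of the other 6 libraries, all WT or Sp3+/-, go on to a suffix of 2 or 3. What the suffix denotes was not given, and the table of 697-4 is named with a suffix that its title lacks. The labels did not say that libraries of a genotype came from separate animals, so p-values measure the spread between these libraries.

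The mean level of the 43 genes was 3.18 in WT 468-4 and 5.08, 4.90 and 4.35 in WT 685-2, 697-1 and 697-3. It was 4.61, 4.48, 4.55 and 3.57 in Sp3+/- 468-3, 685-5, 685-7 and 697-4, and 3.52, 3.49 and 2.32 in Sp3-/- 685-1, 697-2 and 697-5. The genotype means were 4.38 ± 0.86 (SD, n = 4), 4.30 ± 0.49 (SD, n = 4) and 3.11 ± 0.68 (SD, n = 3). Thus the Sp3-/- libraries lay below 3 WT and all Sp3+/- libraries, and WT 468-4 lay among the Sp3-/- libraries. The genes moved together from library to library. Sp3-/- 697-5, the shallowest library, was the lowest of all 11 for 41 genes, and WT 685-2 was the highest for 38. WT 468-4 was below the other WT libraries for 42 of the 43 genes and within the range of the Sp3-/- libraries for 41. Similarly, Sp3+/- 697-4 was below the other Sp3+/- libraries for 40 and within the Sp3-/- range for 25. Among the WT libraries a gene's range had a median of 2.02 log2 units, or 4.06-fold, and the widest was that of Plk1, at 6.37-fold.

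**Figure D2:**
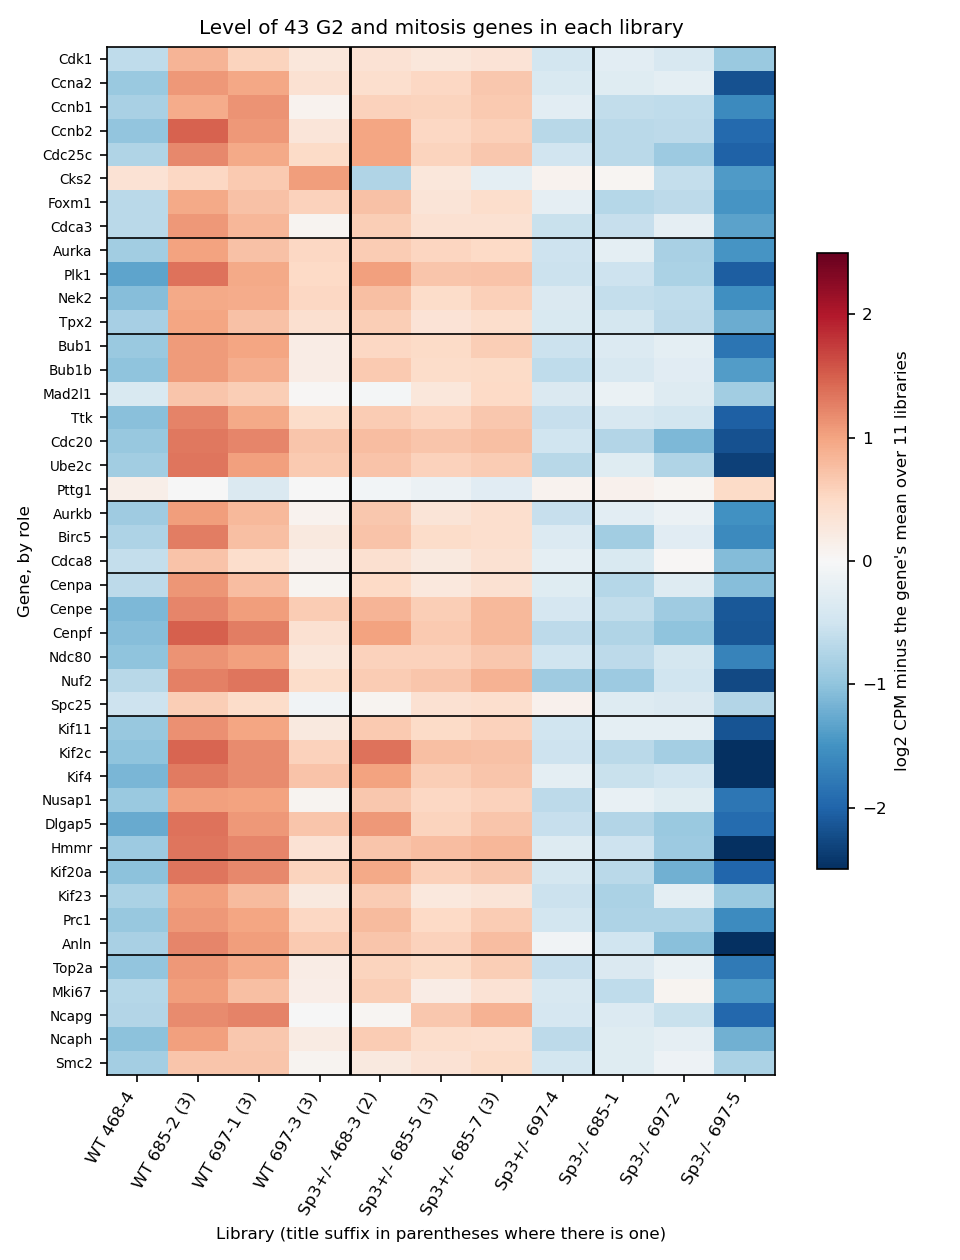
Level of each of the 43 genes (rows, grouped by role) in each of the 11 libraries (columns, grouped by genotype, with the title suffix in parentheses), shown as log2 CPM minus the gene's mean over the libraries. The 6 libraries with a suffix are high (red) and the 5 without one are low (blue) for nearly every gene, with Pttg1 and Cks2 apart from this pattern.

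The mean level of the division genes separated by title suffix without overlap, which it did not do by genotype. It lay between 4.35 and 5.08 in the 6 libraries with a suffix and between 2.32 and 3.57 in the 5 without one. All 3 Sp3-/- libraries belonged to the latter, so suffix and loss of Sp3 can be separated only through WT 468-4 and Sp3+/- 697-4. The suffix was read from the titles, although the table of 697-4 is named with one. Counted with a suffix, 697-4 (3.57) would lie just above the highest library without one, Sp3-/- 685-1 (3.52). Only WT 468-4 would then separate suffix and genotype. No fit was run on that reading. The summed levels of macrophage and of lung mesenchyme markers also separated by title suffix. The summed level of 15 macrophage markers was 400.6 to 964 CPM in the libraries with a suffix and 3288 to 12440 CPM in those without one. By genotype it ranged from 674 to 3540 CPM in WT, from 401 to 3288 CPM in Sp3+/- and from 3387 to 12441 CPM in Sp3-/-. None of the 15 was at 0 throughout a genotype, and all 15 had a higher estimate in Sp3-/- than in WT (median log2 fold change 2.35). Where 1229 of all 14025 genes tested passed as higher, 7 of these markers did. Lyz2, lysozyme of macrophages and the most abundant of them, had a log2 fold change of 2.73 (SE 0.73, adjusted p = 0.0423). The summed level of 12 lung mesenchyme markers, led by Fn1, was 33640 to 37750 CPM with a suffix and 10630 to 28770 CPM without. Singly, Col1a1, Col1a2, Pdgfrb, Tbx4, Tbx5 and Foxf1 separated by suffix, whereas Fn1, Vim, Pdgfra, Thy1, Col3a1 and Tcf21 did not. Fn1 was at 12540 CPM in WT 468-4 and 11820 CPM in WT 685-2. In Sp3-/- against WT 10 of the 12 mesenchyme markers had a lower estimate and 2 a higher one. As lower 4 passed, where 9.77% of all genes tested did. Of the other lists, 5 of 5 mesothelial markers had higher estimates in Sp3-/- than in WT (3 passed), as did 5 of 8 tested epithelial markers (3 passed) and 5 of 9 endothelial markers (2 passed). Their summed levels in WT and Sp3-/- were 687 to 1658 and 2026 to 5629 CPM for mesothelial, 25.1 to 49.3 and 53.1 to 179 CPM for epithelial, and 38.1 to 103 and 88.5 to 132 CPM for endothelial markers. None of these sums separated by suffix. Of the single endothelial markers Vwf and Pecam1 did, and the others did not. Vwf was at 2.549 to 6.165 CPM with a suffix and 20.32 to 72.79 CPM without. In WT 468-4 the sums were 1658 CPM for mesothelial, 34.8 CPM for epithelial and 103 CPM for endothelial markers. In Sp3+/- 697-4 they were 1686, 32.2 and 61.4 CPM. Libraries with a suffix reached 2401, 51.8 and 86.7 CPM. Of 9 erythroid markers 1 was tested and 5 were at 0 in every WT library, as were 5 in every Sp3-/- library, and the sums of the list were 1.99 to 6.74 and 9.11 to 13.2 CPM. The part of other cell types in the levels of the division genes was not tested, and in bulk RNA fewer dividing cells cannot be told apart from less RNA of these genes per cell.

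**Figure D3:**
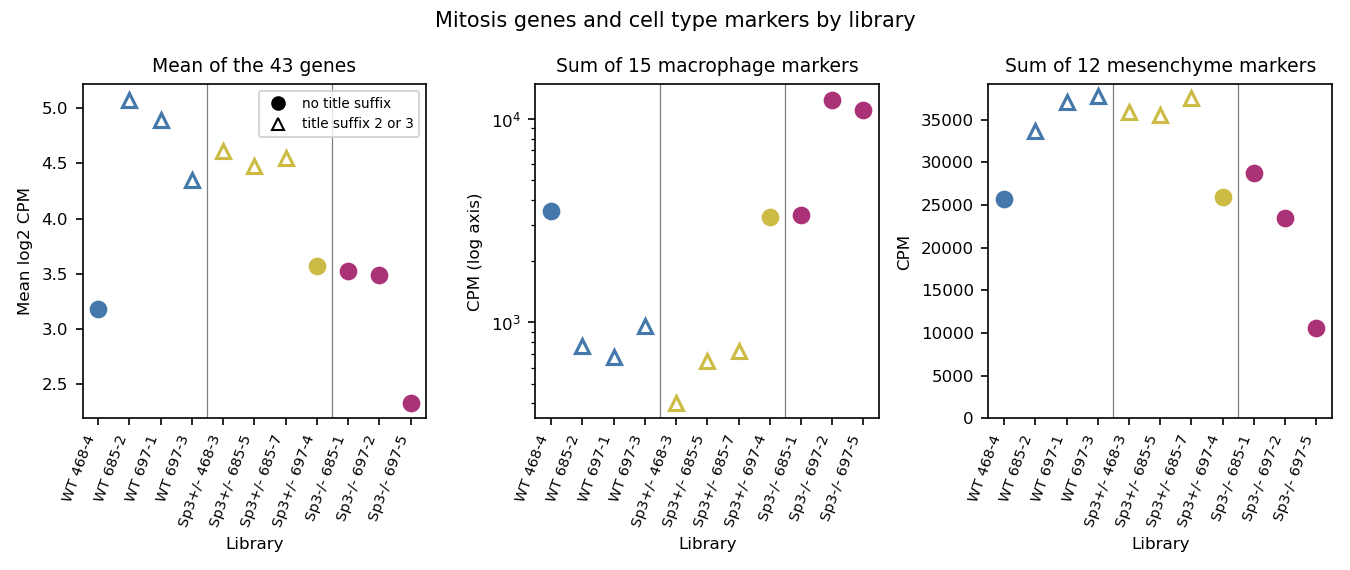
Mean log2 CPM of the 43 genes (left), summed CPM of 15 macrophage markers on a log axis (middle) and summed CPM of 12 lung mesenchyme markers (right) in each library; filled circles are libraries without a title suffix and open triangles those with one, coloured by genotype. The 5 filled circles are lowest in the left and right panels and highest in the middle one.

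Between Sp3-/- and WT the estimate was lower in Sp3-/- for 42 of the 43 genes, with a median log2 fold change of -1.36 where the median of all 14025 genes tested was -0.0032. For 34 of them it was below -1. All 43 passed the filter on low counts. Foxm1 and Cdc20 fell, and the other 41 did not pass the test at an adjusted p below 0.05. The share called, 2 of 43, was no higher than the 9.77% of all genes tested that passed as lower. At an unadjusted p below 0.05, 30 of the 43 passed as lower, where 18.6% of all genes did. Only 1 gene of the 43, Cks2, had every Sp3-/- library below every WT library, against 16.2% of all genes. With WT 468-4 set aside after its low levels of these same genes had been seen, so that the separation is a description only, all 3 Sp3-/- libraries were below the other 3 WT libraries for 42 of the 43 genes, against 24.9% of all genes. In the fit without WT 468-4, 36 of the 43 passed as lower (median log2 fold change -1.62), where 15.1% of genes did, and leaving out any 1 of the other 6 libraries left none in edgeR (10 to 24 at an unadjusted p below 0.05).

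The title suffix changed this picture. As a covariate it was entered as none, 2 or 3. Sp3+/- 468-3 alone had suffix 2, so that library did not bear on the contrasts of these fits. With the suffix as a covariate in a fit of all 11 libraries, none of the 43 genes passed in edgeR, none had an unadjusted p below 0.05, and the median log2 fold change was -0.18, with 33 estimates lower and 10 higher, where 5.8% of all genes tested passed as lower. The largest estimates left were those of Cks2 at -1.03 (adjusted p = 0.191), Anln at -0.73 (adjusted p = 0.383), Cdc20 at -0.57 (adjusted p = 0.374), Kif20a at -0.54 (adjusted p = 0.421) and Foxm1 at -0.53 (adjusted p = 0.254). Over 19 alternatives the adjusted p ranged from 0.00251 to 0.849 for Foxm1, which passed in 8, and from 0.00124 to 0.885 for Cdc20, which passed in 7, and the estimate of both was lower in all 19. The fit without WT 468-4, in which both genes passed, is counted 2 times among these 19. Among the 5 libraries with no suffix, Sp3-/- against the 2 that carry Sp3 gave a median log2 fold change of -0.13 over the 42 genes tested (Cks2 was filtered out), 30 of them lower, and none passed or had an unadjusted p below 0.05; 0.268% of all genes passed as lower. This comparison was chosen after the data were seen. The first number of the library names gives another split. Among libraries numbered 685 the Sp3-/- mean of the 43 genes minus the WT mean was -1.56 log2 units and among those numbered 697 it was -1.72, with 42 genes lower in each, but in both cases every WT library had a suffix and no Sp3-/- library did. No number 468 library was Sp3-/-.

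**Figure D4:**
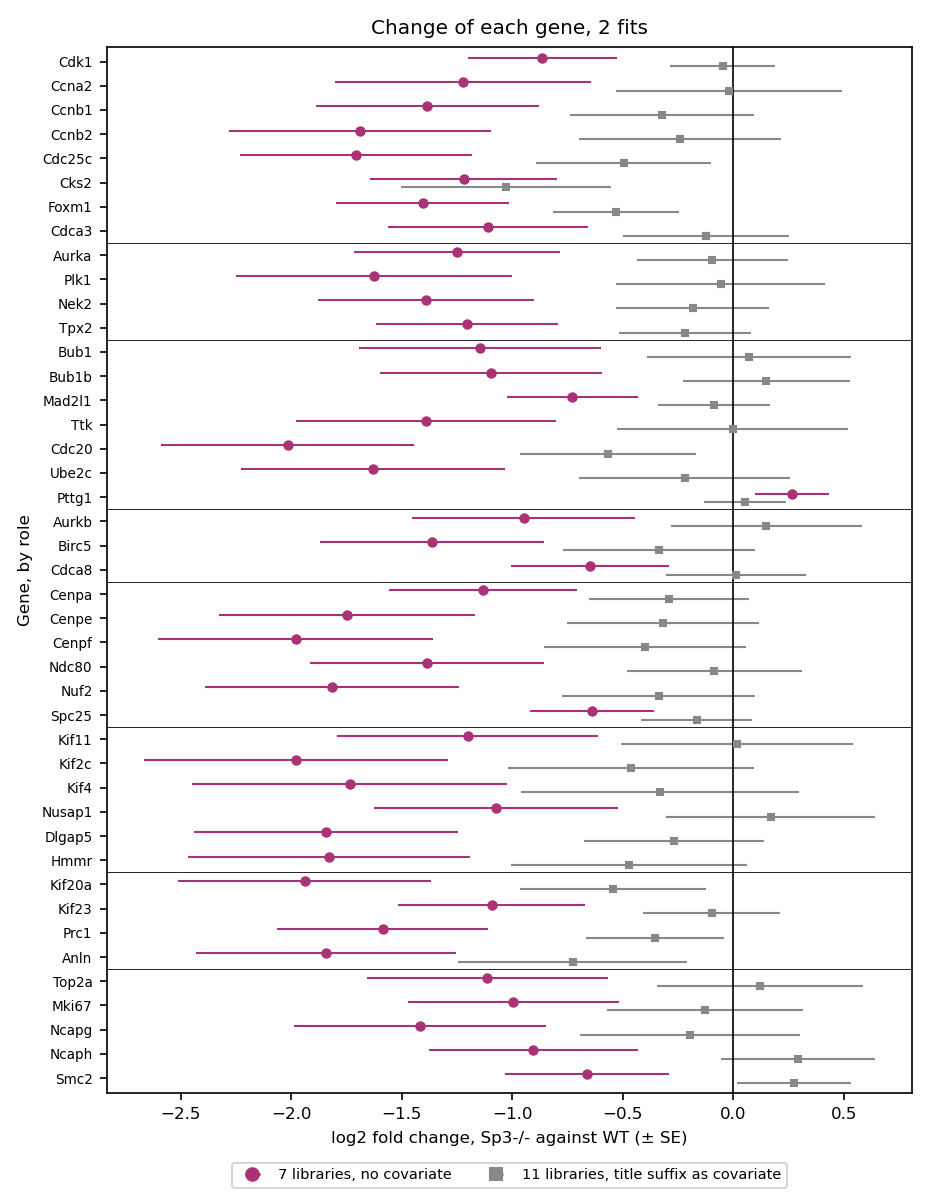
Log2 fold change of each of the 43 genes in Sp3-/- against WT, with its SE, from the 7 libraries of these genotypes (circles) and from all 11 libraries with the title suffix (none, 2 or 3) as a covariate (squares). The circles lie left of 0 for 42 genes, and the squares lie nearer to 0, with 33 left and 10 right of it.

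Genes of mitotic entry were first considered. The 8 members of this group had log2 fold changes from -1.71 to -0.86 (median -1.30), and 1 passed. Foxm1, the forkhead factor that activates G2 and mitosis genes (chromosome 6, 128362994 to 128375886, GRCm38.p6), was at 3.89, 5.51, 5.29 and 5.15 in WT, 5.29, 4.90, 5.00 and 4.34 in Sp3+/- and 3.86, 3.91 and 3.10 in Sp3-/-. All Sp3-/- libraries were low, 2 of them at about the level of WT 468-4, and no Sp3-/- library reached an Sp3+/- library. Foxm1 fell in Sp3-/-, with a log2 fold change of -1.41 (SE 0.39, adjusted p = 0.0465) and genotype means of 4.96 ± 0.73 (SD, n = 4) in WT and 3.63 ± 0.46 (SD, n = 3) in Sp3-/-. Cdc25c, the phosphatase that activates CDK1, was at 1.06, 3.02, 2.76 and 2.30 in WT, 2.81, 2.38, 2.49 and 1.35 in Sp3+/- and 1.15, 0.92 and -0.21 in Sp3-/-. Its log2 fold change against WT was -1.71 (SE 0.53, adjusted p = 0.0598). Cdk1 (-0.86), Ccna2 (-1.22), Ccnb1 (-1.39), Ccnb2 (-1.69), Cdca3 (-1.11) and Cks2 (-1.22) did not pass. The CDK subunit Cks2 was counted in only 2 to 47 reads a library, and 59.2% of the 50-base windows of its transcript also occur elsewhere in the GRCm39 genome, as do 58.9% of those of the cyclin B gene Ccnb1; the deposited counts leave out reads that map to several places. For 40 of the 43 genes this share was under 10%.

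Aurka, Plk1 and Nek2, which encode kinases of the centrosome, and Tpx2 had log2 fold changes from -1.63 to -1.21, and none passed. Tpx2, which activates Aurora A on the spindle, was at 4.70, 6.52, 6.25 and 5.92 in WT, 6.15, 5.86, 5.97 and 5.14 in Sp3+/- and 5.09, 4.87 and 4.28 in Sp3-/-. Nek2, a kinase of centrosome separation, was at 2.72, 4.75, 4.73 and 4.31 in WT, 4.54, 4.26, 4.38 and 3.44 in Sp3+/- and 3.19, 3.15 and 2.25 in Sp3-/-. In both, WT 468-4 lay among the Sp3-/- libraries and the other WT libraries above them all, and the log2 fold changes were -1.21 (SE 0.41, adjusted p = 0.0776) and -1.39 (SE 0.49, adjusted p = 0.083). Aurka (-1.25) and Plk1 (-1.63) showed the same order of libraries.

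Among 7 genes of the spindle checkpoint and anaphase promotion, 6 had lower estimates and 1 passed. Cdc20, the activator of the anaphase-promoting complex (chromosome 4, 118432901 to 118437343), was at 2.90, 5.16, 5.06 and 4.53 in WT, 4.60, 4.54, 4.59 and 3.33 in Sp3+/- and 3.11, 2.71 and 1.66 in Sp3-/-. WT 468-4 and Sp3+/- 697-4 each lay well below every other library of their genotype. Cdc20 fell in Sp3-/-, with the largest change of the 43 genes, a log2 fold change of -2.02 (SE 0.57, adjusted p = 0.049). The ubiquitin-conjugating enzyme Ube2c, which works with the same complex, was at 2.82, 5.02, 4.72 and 4.35 in WT, 4.40, 4.27, 4.32 and 2.99 in Sp3+/- and 3.39, 2.93 and 1.36 in Sp3-/-, and its log2 fold change was -1.63 (SE 0.60, adjusted p = 0.0914). The checkpoint kinases Bub1 (-1.15), Bub1b (-1.10) and Ttk (-1.39) and the checkpoint protein gene Mad2l1 (-0.73) did not pass.

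Pttg1 was the exception. It encodes securin, the inhibitor that holds separase inactive until anaphase (chromosome 11, 43420244 to 43427463), and was at 4.35, 4.20, 3.85 and 4.20 in WT, 4.13, 4.07, 3.93 and 4.29 in Sp3+/- and 4.31, 4.26 and 4.69 in Sp3-/-. The highest value was in Sp3-/- 697-5, the library in which 41 of the other genes were lowest, and WT 468-4 was the highest of its genotype. Its log2 fold change against WT was 0.27 (SE 0.17, adjusted p = 0.281), which did not pass, and its range among WT libraries, 0.50 log2 units, was the narrowest of the 43. Its counts ran from 247 to 978, and 0.923% of its 50-base windows occur elsewhere. The promoter listed for Pttg1, which starts inside the annotated span of the gene, held none of the 3 motifs. Nuf2, Nusap1 and Ncaph also held none, and their log2 fold changes were -1.82, -1.08 and -0.90. The median log2 fold change was -1.32 in the 26 genes with a CHR and -1.29 in the 10 without one, and it was -1.39 in the 27 with a GC box and -1.11 in the 9 without one.

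**Figure D5:**
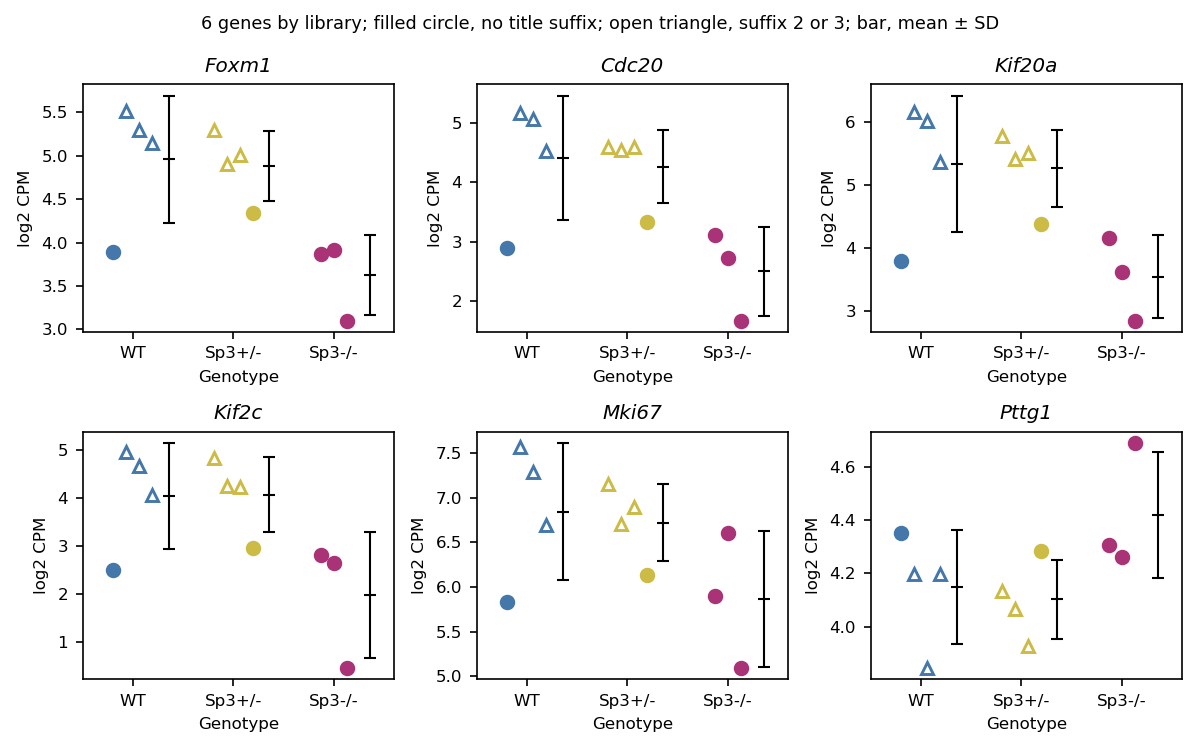
Log2 CPM of 6 genes in each library by genotype, with filled circles for libraries without a title suffix, open triangles for those with one, and the mean ± SD of each genotype beside the points. In WT and Sp3+/- 1 filled circle lies below the triangles in every panel but that of Pttg1, where it lies above them.

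Of the chromosomal passenger complex, which corrects faulty attachments, no member passed. Its kinase Aurkb was at 2.46, 4.39, 4.16 and 3.44 in WT, 4.03, 3.67, 3.76 and 2.77 in Sp3+/- and 3.08, 3.20 and 1.84 in Sp3-/-, with a log2 fold change of -0.95 (SE 0.51, adjusted p = 0.213). Birc5, which encodes survivin, was at 2.80, 4.86, 4.34 and 3.81 in WT, 4.30, 4.03, 3.99 and 3.23 in Sp3+/- and 2.72, 3.29 and 1.99 in Sp3-/-, with a log2 fold change of -1.36 (SE 0.51, adjusted p = 0.0951). Cdca8, which encodes borealin, was at 3.30, 4.60, 4.33 and 4.01 in WT, 4.30, 4.14, 4.27 and 3.65 in Sp3+/- and 3.52, 3.92 and 2.80 in Sp3-/- and had one of the smallest estimates of the 43, -0.65 (SE 0.36, adjusted p = 0.225). In all 3 genes WT 468-4 lay within the range of Sp3-/-.

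The 6 centromere and kinetochore genes had a median log2 fold change of -1.57, and none passed. Cenpf, a large kinetochore protein, was at 3.25, 5.82, 5.59 and 4.70 in WT, 5.33, 4.97, 5.13 and 3.67 in Sp3+/- and 3.58, 3.31 and 2.19 in Sp3-/-, with a log2 fold change of -1.98 (SE 0.62, adjusted p = 0.0625). Nuf2 and Spc25 encode subunits of the NDC80 complex, which grips the microtubule. Nuf2 was at 2.37, 4.34, 4.40 and 3.53 in WT, 3.70, 3.76, 3.93 and 2.18 in Sp3+/- and 2.17, 2.56 and 0.82 in Sp3-/-, with a log2 fold change of -1.82 (SE 0.58, adjusted p = 0.0642). Spc25 was at 3.75, 4.88, 4.72 and 4.19 in WT, 4.33, 4.65, 4.69 and 4.38 in Sp3+/- and 3.95, 3.91 and 3.55 in Sp3-/-, with a log2 fold change of -0.64 (SE 0.28, adjusted p = 0.141). Thus 2 subunits of 1 complex differed in the size of their estimates, a difference that was not tested. Cenpa (-1.13), Cenpe (-1.75) and Ndc80 (-1.39) did not pass.

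Spindle motors and microtubule proteins had the lowest median of the role groups, -1.78 over 6 genes, and none passed. Kif2c, a kinesin that depolymerises microtubules, was at 2.48, 4.95, 4.67 and 4.07 in WT, 4.84, 4.24, 4.22 and 2.96 in Sp3+/- and 2.82, 2.64 and 0.45 in Sp3-/-, with 697-5 far below every other library. Its log2 fold change was -1.98 (SE 0.69, adjusted p = 0.08). Dlgap5, a spindle microtubule protein, was at 2.58, 5.19, 4.92 and 4.54 in WT, 4.92, 4.40, 4.54 and 3.26 in Sp3+/- and 3.11, 2.91 and 1.91 in Sp3-/-, with a log2 fold change of -1.84 (SE 0.60, adjusted p = 0.0681). Kif11 (-1.20), Kif4 (-1.74), Nusap1 (-1.08) and Hmmr (-1.83) did not pass.

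The 4 cytokinesis genes had a median log2 fold change of -1.71 against WT. Kif20a, a kinesin of the central spindle, was at 3.79, 6.16, 6.02 and 5.37 in WT, 5.77, 5.41, 5.50 and 4.37 in Sp3+/- and 4.15, 3.62 and 2.84 in Sp3-/-. Prc1, which bundles the microtubules of the midzone, was at 3.96, 5.99, 5.90 and 5.42 in WT, 5.70, 5.40, 5.54 and 4.45 in Sp3+/- and 4.14, 4.14 and 3.33 in Sp3-/-. Anln, the actin-binding protein anillin of the cleavage furrow, was at 4.83, 6.85, 6.69 and 6.30 in WT, 6.34, 6.22, 6.41 and 5.55 in Sp3+/- and 5.15, 4.59 and 3.10 in Sp3-/-. In all 3 the Sp3-/- libraries lay below every Sp3+/- library. WT 468-4 lay within the Sp3-/- range. Against WT the log2 fold changes were -1.94 (SE 0.57, adjusted p = 0.0538), -1.59 (SE 0.48, adjusted p = 0.0565) and -1.84 (SE 0.59, adjusted p = 0.0648), none of which passed. Kif23 (-1.09) did not pass either.

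Genes of mitotic chromosome structure had the second smallest median of the role groups, -0.99 over 5 genes, and none passed. Mki67, which coats mitotic chromosomes and is the Ki-67 proliferation marker, was at 5.83, 7.57, 7.29 and 6.69 in WT, 7.16, 6.71, 6.90 and 6.13 in Sp3+/- and 5.90, 6.61 and 5.09 in Sp3-/-, so that Sp3-/- 697-2 lay close to the lowest of the WT libraries with a suffix. Its log2 fold change was -0.99 (SE 0.48, adjusted p = 0.172). The condensin subunit Ncapg was at 2.80, 4.70, 4.76 and 3.52 in WT, 3.57, 4.21, 4.40 and 3.11 in Sp3+/- and 3.18, 2.98 and 1.57 in Sp3-/-, with a log2 fold change of -1.42 (SE 0.57, adjusted p = 0.115). Top2a (-1.11), Ncaph (-0.90) and Smc2 (-0.66) did not pass.

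Between Sp3-/- and Sp3+/- the estimate was again lower for 42 genes, with a median log2 fold change of -1.16. Of all genes tested 12.5% passed as lower, and the share among the 43 was near it. Foxm1, Cdc25c, Cdc20, Kif20a, Prc1 and Anln fell, 6 of 43. Their log2 fold changes were -1.25 (SE 0.37, adjusted p = 0.0322), -1.60 (SE 0.51, adjusted p = 0.0425), -1.72 (SE 0.54, adjusted p = 0.0394), -1.70 (SE 0.54, adjusted p = 0.0415), -1.42 (SE 0.46, adjusted p = 0.0436) and -1.65 (SE 0.51, adjusted p = 0.0391). Every Sp3-/- library lay below every Sp3+/- library for 17 genes, against 17.7% of all genes tested. Without WT 468-4 and Sp3+/- 697-4, an alternative chosen after the data were seen, 39 genes passed as lower, where 16.4% of all genes did. With the suffix as a covariate none passed in edgeR and the median was -0.06, with 24 estimates lower and 19 higher. Without 697-4 alone 17 passed. Leaving out 1 of the other libraries of these genotypes gave 0 to 3. This comparison and that with WT share the Sp3-/- libraries.

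Between Sp3+/- and WT no gene passed in edgeR, of the 43 or of all 14130 tested (0%), nor with DESeq2 or limma-voom. The estimates were lower in Sp3+/- for 42 genes but small, with a median log2 fold change of -0.19. At an unadjusted p below 0.05 Cks2 alone of the 43 was lower (log2 fold change -0.80), and 246 of all genes tested differed in either direction, 137 of them lower. The sign of the median was not stable, being 0.09 with limma-voom on the same libraries (11 estimates lower and 32 higher), 0.07 without WT 685-2 and 0.0074 without Sp3+/- 697-4. The median SE of a gene was 0.44 log2 units, so that differences of the observed size were not detectable with 4 libraries a genotype.

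Other genes of the same pathway were examined from lists chosen with earlier results of these data known. Of 113 further G2 and mitosis genes tested between Sp3-/- and WT, 100 had a lower estimate, 8 passed as lower and none as higher, with a median log2 fold change of -0.73. The share called, 8 of 113, was no higher than the 9.77% of all genes tested. Among those that passed were Cenpm, a centromere protein (-1.81, SE 0.45, adjusted p = 0.0340), Ckap2, a spindle protein (-1.68, SE 0.45, adjusted p = 0.0428), Cenpt (-0.99, SE 0.22, adjusted p = 0.0267) and Cks1b, a CDK subunit (-0.98, SE 0.23, adjusted p = 0.0288). Gtse1 differed from the members in its libraries. It was at 6.31, 6.47, 6.39 and 6.63 in WT, at 6.41, 6.41, 6.25 and 6.62 in Sp3+/- and at 5.73, 5.50 and 5.74 in Sp3-/-. WT 468-4 and Sp3+/- 697-4 thus lay with their own genotypes, and Gtse1, which acts on p53 and microtubules in G2, fell in Sp3-/- with a log2 fold change of -0.80 (SE 0.11, adjusted p = 0.00987). Anapc5 (-0.63, SE 0.10, adjusted p = 0.0125) and Cdc16 (-0.46, SE 0.10, adjusted p = 0.0277), subunits of the anaphase-promoting complex, also fell. The centromere gene Cenpb fell too (-0.40, SE 0.11, adjusted p = 0.0426). In Anapc5, Cdc16 and Cenpb, as in Cenpm, Cenpt and Cks1b, WT 468-4 and Sp3+/- 697-4 likewise lay above every Sp3-/- library. In Ckap2 WT 468-4 (4.43) lay below Sp3-/- 685-1 (4.61). All of these genes were picked for passing in a fit that held WT 468-4, so the place of that library is a description only. For the MuvB and B-Myb complex, which acts at the CHR, 0 of 6 genes passed in edgeR (none at an unadjusted p below 0.05 as lower), and the median log2 fold change was -0.02. Of 36 DNA replication genes, which act in S phase, 32 had lower estimates and 3 passed, Rrm2, Gins2 and Prim2, with a median of -0.46; this share too was no higher than that of all genes.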

How the data were processed

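Gene counts were deposited by the authors as 1 table of whole-number counts per library. Per the labels, the TruSeq libraries were read as 50-base single ends, and the submitters' processing notes name FastQC 0.10.1, STAR 2.4.5a, HTSeq and mm10. The tallies of reads assigned to no gene were 38.4 to 40.9% of all tallied reads, with those not mapped uniquely at 30.1 to 33.7%, and entered neither the library sizes nor the tests. Whether counting used strand was not given in the sources used here.

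A gene entered a fit if its CPM exceeded 1 in 1 or more of the libraries fitted. Tests used edgeR 4.0.16 in R 4.3.3 (TMM scaling, quasi-likelihood F-test with robust estimation), and p-values were adjusted over all genes tested by the Benjamini-Hochberg method, with a threshold of 0.05. The fit for Sp3-/- against WT held 7 libraries, and the fits involving Sp3+/- held all 11. SEs are those implied by the test statistic. Fits were tested on simulated data. Alternatives were DESeq2 1.42.0, limma-voom of limma 3.58.1 with and without a consensus correlation, other scalings and filters, a covariate for the title suffix, a block for the number that opens the title, and leaving out each library.

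The members and lists were chosen with earlier results of these data known. Named members are the 2 with the smallest p of each role group, those called in any comparison (up to 12) and the 3 with the smallest change; others are given in counts. Promoters were taken from RefSeq (GRCm38.p6). Shared sequence was measured as 50-base windows of the longest coding transcript (GENCODE) found letter for letter elsewhere in GRCm39, with Python 3.11.15.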

Additional observations from a re-analysis of the deposited data

Results flagged for a closer look

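In 4 of 44 tests of the groups of 4 libraries, 1 library stood apart from the others by Dixon's test at the 95% level, and all 4 concerned Sp3+/- 697-4. Chance marks about 1 in 20 such groups. The values tested were the mean level of the 43 genes, the 20 named members and Sp3. The mean of the 43 genes was 3.57 log2 CPM in 697-4, where the other Sp3+/- libraries had 4.48, 4.55 and 4.61. Cdc20 was at 3.33 log2 CPM in 697-4 against 4.54, 4.59 and 4.60, Ube2c at 2.99 against 4.27, 4.32 and 4.40, and Nuf2 at 2.18 against 3.70, 3.76 and 3.93. The 4 marked values come from 1 library and are not independent. No value was marked among the WT libraries, whose 3 higher members lay farther apart.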

How the results depend on the processing

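The number of the 43 genes called lower in Sp3-/- against WT was 2 in the reported fit. It was 28 with DESeq2, 0 with limma-voom and 0 with a consensus correlation of 0.11 (3 and 8 at an unadjusted p below 0.05). It was 1 with library size alone, 0 with every gene that had a count and 18 with all 11 libraries in 1 fit. The suffix as a covariate gave 0, and leaving out 468-4 gave 36, in a fit that does not hold 697-4. The median log2 fold change was -0.18 with the suffix covariate and 0.072 in libraries without a suffix. Leaving out 1 library gave 0 to 36 genes and medians of -1.62 to -1.07. Against Sp3+/-, where 6 were called, the count was 23 with DESeq2, 0 with limma-voom and 0 with a consensus correlation, 1 with every gene that had a count, 0 with the suffix covariate (median -0.059), 18 with only the 2 genotypes, 39 without 468-4 and 697-4, and 0 to 17 when 1 library was left out (3 without 685-1). In libraries without a suffix, where 468-4 is the only WT library and is assumed to vary like the others, 26 of 42 estimates were higher and 16 lower, with log2 fold changes against WT of 0.077 for Tpx2, 0.19 for Nek2, 0.37 for Aurkb, 0.15 for Dlgap5, 0.14 for Mki67, 0.050 for Spc25 and 0.17 for Cdca8, and with the suffix covariate of 0.15 for Aurkb and 0.012 for Cdca8. None of these passed. The cause was not tested. Promoters with a CHR numbered 12 instead of 27 in the 200 bases before the start.

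With the first title number as a replicate block, 36 genes were called lower against WT and 2 against Sp3+/-. In the former, 468-4 is the only library of its number and does not bear on the contrast. Of the 14 pairs of libraries that share a number across genotypes, 7 had deviations correlated above 0.1 (range -0.69 to 0.39), so the numbers were not taken to pair the libraries. All 5 pairs numbered 685 were above 0.1 (0.124 to 0.363), whereas those numbered 468 and 697 were mixed or negative. Depth limits Cks2 most, with 2 reads in 697-5.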
